A study of Mus musculus with 10 samples.

Results

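The 34 genes described here mark cells outside the Emx1+ lineage: 7 blood, 10 endothelial, 5 pericyte, 10 microglial or macrophage and 2 fibroblast genes. They were chosen by symbol and found by their Ensembl identifiers among the 53379 genes of the files, with no filter on low counts, and their reads serve as a check of what the sort let through. RNA-seq was done on cells sorted from E16 mouse neocortex, 400 cells and 1 embryo per library, from 3 embryos that lacked Cdkn1c in the lineage (cKO-Cdkn1c-MADM-7, cKO below) and 7 controls (MADM-7). MADM (mosaic analysis with double markers) labels sparse cells with GFP, tdT or both after Cre recombination, and all labelled cells of an embryo were collected together.

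All 10 embryos carried the MADM cassettes on chromosome 7 (MADM-7 GT/TG) and Emx1-Cre. In the cKO both chromosomes 7 also carried Cdkn1c-flox, and the controls had no flox allele. The labels give CD1 as the strain, and the protocol a mixed background of C57BL/6J and CD1. Cre driven from Emx1 acts in dorsal cortical progenitors and their progeny, so deletion and label were both limited to that lineage, in which GFP+ and tdT+ cells can be uniparental for chromosome 7. The labels do not say which embryos shared a litter, a sort or a sequencing run. Cdkn1c itself, the deleted gene, had 32, 10 and 18 reads in cKO 1, 2 and 3 against 116, 278 and 369 as the lowest, median and highest of the controls.

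Emx1 is expressed in the radial glia of the dorsal telencephalon, which give rise to excitatory neurons and glia. Red blood cells, endothelial cells, pericytes, microglia, border macrophages and meningeal fibroblasts arise elsewhere and reach the cortex through the vessels and the meninges, so their transcripts are commonly read as a measure of purity in a sorted cortical sample. Red cell RNA is dominated by globin messages, and in a mouse at this stage the embryonic globins have given way to the adult genes.

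Between 1738220 and 3362487 reads per library were counted on genes, so that 3 reads, the limit set for a gene with no read, corresponded to between 0.892 and 1.73 CPM. CPM here are the reads of a gene or list for every 1000000 reads counted on genes in that library. Intervals and limits cover counting error only, since amplified reads are not independent molecules. The 22 Emx1 lineage genes (Emx1, Pax6, Neurod6, Tubb3 and others) had reads in every library, at least 29 for each, and summed to 8386 to 12083 CPM. Their sum was lower in each cKO library than in every control. By edgeR's quasi-likelihood test 4 of the 22 fell, Neurod6, Neurod2 and Cux2 among them, and 0 rose. Their median log2 fold change was 0.01, as for all genes tested. By the same test 6 of 7 Cajal-Retzius neuron genes rose. Over all 11551 genes tested 262 rose and 102 fell. With no filter on low counts, DESeq2 called 2 of the 7 and edgeR's older robust spread 4. The sum of the Cajal-Retzius genes was 597 to 693 CPM in the cKO against 15.96 to 175 in the controls. What part these shifts have in the values below was not tested.

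The markers of outside cells were rare. The 34 genes together took between 0.00327% and 0.233% of the reads on genes. Of the 34, 33 had at least 1 read in some library, and the embryonic beta globin Hbb-y had none in 10 libraries, which allows up to 0.109 CPM over all of them. Only 3 of the 34 (Egfl7, Ramp2 and Dcn) had reads in every library. The heatmap of reads shows that the remaining reads came in blocks: globin reads in cKO 1, control 2 and control 5, endothelial genes in cKO 2, and macrophage genes in cKO 3.

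**Figure D1:**
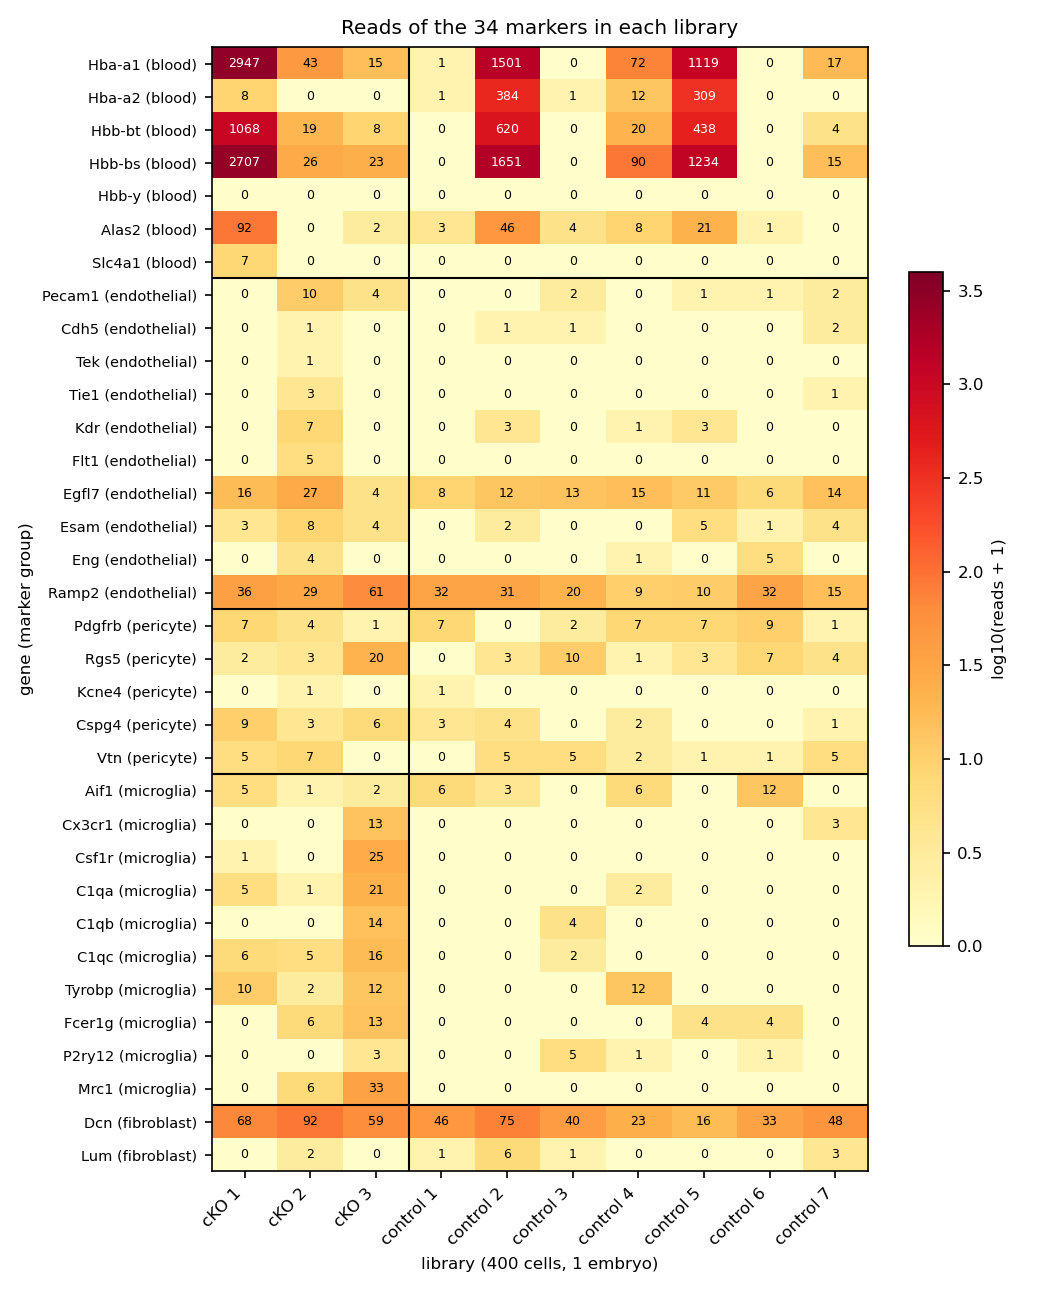
Reads of the 34 genes (rows, by marker group) in the 3 cKO and 7 control libraries (columns), with the count printed in each cell and the colour giving log10(reads + 1). Globins reach 2947 reads in cKO 1, 10 of 10 endothelial genes have reads in cKO 2, and 10 of 10 microglial genes have reads in cKO 3.

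In the fit over every gene that averaged 10 reads or more, 364 of 11551 genes (3.15%) differed between cKO and control, 262 higher and 102 lower (edgeR quasi-likelihood test, Benjamini-Hochberg adjusted p under 0.05). DESeq2 called 510 of the same genes (4.42%), 300 higher and 210 lower. Of the 34 markers, 8 passed this filter and 0 differed by edgeR, and 0 also differed by DESeq2 or limma-voom, although 3 of the 8 had an unadjusted p under 0.05, as did 16.4% of all genes tested. Of the 8, 7 had a positive log2 fold change, against 51.3% of all genes tested, and their median was 0.99 against 0.01. Without cKO 1, 3 of the 7 markers still tested were positive and their median was -3.48. The other 26 were too low for that fit, 19 with a mean of 1 to 10 reads and 7 below 1. The 8 that passed are the adult globins, Alas2, Egfl7, Ramp2 and Dcn.

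Blood genes made up 14537 of the 15961 reads of the 34 markers. Hba-a1 and Hba-a2 encode the adult alpha chains of haemoglobin and lie next to each other on chromosome 11 (GRCm38, Hba-a1 at chr11:32283511-32284465 and Hba-a2 at chr11:32296489-32297298, both on the plus strand). Hbb-bs and Hbb-bt encode the adult beta chains and lie on the minus strand of chromosome 7 (chr7:103826534-103828096 and chr7:103812524-103813996). In each pair the coding sequences differ at a single base. These stretches are shown because a read can tell the paired genes apart only where they differ, and the capital marks that base in exon 3.
Hba-a1: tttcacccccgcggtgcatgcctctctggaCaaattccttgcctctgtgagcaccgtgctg
Hba-a2: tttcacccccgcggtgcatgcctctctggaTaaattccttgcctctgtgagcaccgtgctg
Hbb-bs: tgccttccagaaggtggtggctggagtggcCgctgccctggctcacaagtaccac
Hbb-bt: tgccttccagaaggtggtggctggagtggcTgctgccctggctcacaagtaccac

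The alpha stretches are coding bases 351 to 411 (chr11:32284313-32284373 and chr11:32297130-32297190), and the beta stretches are coding bases 387 to 441 (chr7:103826668-103826722 and chr7:103812659-103812713), from the GENCODE M21 transcripts of GRCm38. Written from Hba-a1 to Hba-a2 and from Hbb-bs to Hbb-bt, and counted from 1 at the first coding base, the substitutions are C381T over 426 bases and C417T over 441 bases, each at the last place of its codon. Of the 505 windows of 50 bases in the Hba-a2 transcript, 66 were found in no other alpha or beta globin transcript, 50 of which cover base 381, against 211 of 650 in Hba-a1. Reads that aligned to more than one place had been left out by the authors, so reads from the shared windows are not in these counts. For the beta pair, 198 of 579 windows in Hbb-bs and 273 of 654 in Hbb-bt were their own, mostly in the untranslated ends.

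The promoters of the alpha pair were nearly the same. In the windows of 250 bases before the RefSeq starts (GRCm38.p6), Hba-a1 and Hba-a2 shared an unbroken run of 247 bases, whereas the longest run shared by Hbb-bs and Hbb-bt was 14 bases. The Hba-a2 window (chr11:32296242-32296491, plus strand) is shown with capitals on 4 motifs, searched on both strands: the CACCC box, the CCAAT box, the ATATAA form of the TATA box and the GATAA core.
Hba-a2 promoter: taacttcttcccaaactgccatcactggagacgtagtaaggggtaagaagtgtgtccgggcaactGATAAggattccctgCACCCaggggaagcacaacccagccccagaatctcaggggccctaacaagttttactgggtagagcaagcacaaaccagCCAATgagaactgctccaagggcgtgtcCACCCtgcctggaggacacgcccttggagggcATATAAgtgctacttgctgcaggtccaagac
All 4 motifs were found in each of the 4 adult globin windows. Over the windows of 27025 genes, CACCC was in 51.3%, CCAAT in 34.5%, GATAA in 23.0% and ATATAA in 9.51%. A match to these letters is a description of the window and no evidence of binding.

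Globin reads were high in 3 libraries, 1 of them cKO. Hba-a1 had 2947, 43 and 15 reads in cKO 1, 2 and 3, and 0, 17 and 1501 as the lowest, median and highest of the controls. Hbb-bs had 2707, 26 and 23 reads in the cKO, and 0, 15 and 1651 as lowest, median and highest of the controls. Hbb-bt had 1068, 19 and 8 reads in the cKO and 0, 4 and 620 in the controls, in the same order. For all 3 genes cKO 1 was the highest library, control 2 and control 5 came next, and the genotypes overlapped. The 4 adult globins took 0.224% of the reads in cKO 1, 0.147% in control 2 and 0.178% in control 5, and no more than 0.00634% in any other library. A single cell of the 400 is 0.25% of the cells sorted. In a bulk sample of this kind, fewer cells of a type and less RNA per cell cannot be told apart.

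In the fit with the filter and genotype alone, no globin passed the threshold of the edgeR quasi-likelihood test, whereas all 4 adult globins passed it with no filter, in a fit described with the microglial genes. The log2 fold change was 1.07 (SE 1.27, adjusted p = 0.746) for Hba-a1, 0.80 (SE 1.29, adjusted p = 0.828) for Hbb-bs and 1.03 (SE 1.18, adjusted p = 0.733) for Hbb-bt. These positive values rest on cKO 1: without that library they were -3.78, -4.17 and -3.48, with adjusted p of 0.414, 0.390 and 0.475.

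Hba-a2 did not follow its neighbour. It had 8, 0 and 0 reads in cKO 1, 2 and 3, and 0, 1 and 384 as the lowest, median and highest of the controls, with 309 in control 5 and 12 in control 4. The genotypes overlapped, but the library with the most Hba-a1 reads held few Hba-a2 reads. Hba-a2 made up 0.271% of the 2955 alpha globin reads in cKO 1 (95% Wilson interval 0.137 to 0.533), against 20.4% of 1885 in control 2 (18.6 to 22.2), 21.6% of 1428 in control 5 (19.6 to 23.8) and 14.3% of 84 in control 4 (8.37 to 23.3). In cKO 2 the share was 0% of 43 alpha reads, with an upper bound of 8.20%.

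The interval of cKO 1 lay below those of these 3 controls. That of cKO 2 also lay below them. In cKO 3, with 15 alpha reads, Hba-a2 had none, and the upper bound of 20.4% overlapped the intervals of these controls. Control 7 had no Hba-a2 read among 17 alpha reads, with an upper bound of 18.4%, just below the intervals of controls 2 and 5 and within that of control 4. So a control without Hba-a2 reads was seen as well. The share was singled out after its values had been seen and was not tested between genotypes. In the fit over all genes the log2 fold change of Hba-a2 was -5.24 (SE 2.24, unadjusted p = 0.0297, adjusted p = 0.239). Without cKO 1, which held all the Hba-a2 reads of the cKO, the fitted value was -9.74 (adjusted p = 0.390), set against 0 reads and so no bound. With all libraries and a block for replicate number it was -5.16 (edgeR adjusted p = 0.000125), but the labels do not say what the numbers share. The counts do not show which base the embryos carry at position 381, and the source of the gap was not tested.

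In the 3 libraries with the most globin reads the beta pair had like shares. Hbb-bt made up 28.3% of 3775 beta reads in cKO 1 (26.9 to 29.7), 27.3% of 2271 in control 2 (25.5 to 29.2) and 26.2% of 1672 in control 5 (24.1 to 28.4), so these intervals overlapped. In control 4 it was 18.2% of 110 reads (12.1 to 26.4), below the interval of cKO 1. In cKO 2 it was 42.2% of 45 reads (29.0 to 56.7), above the intervals of controls 4 and 5. Alpha reads ran at 0.783 for each beta read in cKO 1, 0.830 in control 2 and 0.854 in control 5.

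**Figure D2:**
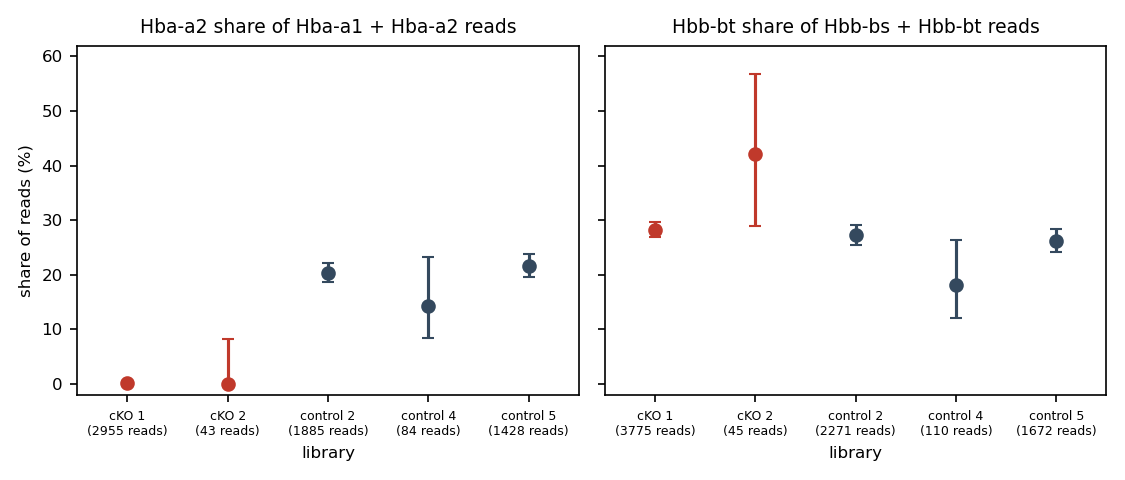
Share of Hba-a2 among alpha globin reads (left) and of Hbb-bt among beta globin reads (right), in percent, in the 5 libraries with at least 40 reads of the pair (cKO in red, control in dark blue), with 95% Wilson intervals as bars. The Hba-a2 share is 0.271% in cKO 1 and 20.4% and 21.6% in controls 2 and 5, whereas the Hbb-bt share lies between 26.2% and 28.3% in the same 3 libraries.

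Other red cell genes followed the globins in part. Alas2, the erythroid enzyme of the first step of haem synthesis, had 92, 0 and 2 reads in cKO 1, 2 and 3 and 0, 4 and 46 as the lowest, median and highest of the controls. Its highest libraries were the same 3, and the genotypes overlapped (log2 fold change 1.42, SE 0.94, edgeR adjusted p = 0.494). Slc4a1, the band 3 anion exchanger of the red cell membrane, had 7 reads in cKO 1 and 0 in the other libraries. The embryonic globins were at or near 0: Hbb-bh1 and Hbb-bh2 had no read and Hba-x had 1. Of 21 further blood genes matched, 6 passed the filter and 0 differed by edgeR, DESeq2 or limma-voom (2 at an unadjusted p under 0.05 by edgeR). The 2 with the most reads, Bpgm and Fech, also serve haem and glycolytic metabolism in other cells, and had reads in every library.

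Apart from Egfl7 and Ramp2, the endothelial markers were sparse in all libraries but cKO 2. Among the receptors of endothelial cells, Kdr (VEGF receptor 2) had 0, 7 and 0 reads in cKO 1, 2 and 3 and 0 to 3 in the controls, Flt1 (VEGF receptor 1) had 5 reads in cKO 2 alone, Tie1 had 3 there and 1 in control 7, and Tek (the angiopoietin receptor) had 1 read, in cKO 2. Among junction genes, Pecam1 had 0, 10 and 4 reads in the cKO and 0 to 2 in the controls. Cdh5 (VE-cadherin) had 1 read in cKO 2 and 0 to 2 in the controls, and Esam had 3, 8 and 4 in the cKO and 0 to 5 in the controls. Eng (endoglin, a TGF-beta co-receptor) had 4 reads in cKO 2, 1 in control 4 and 5 in control 6. In cKO 2 all 10 endothelial markers had reads, against 3 and 4 in the other cKO and 2 to 6 in the controls. With 30 further endothelial genes, 29 of 40 had reads in cKO 2 and 13 to 21 in the other libraries. Cldn5, the main claudin of the brain endothelial barrier, had 23 reads in cKO 2 and at most 3 elsewhere. Others of that list did not peak there. Plvap had 18, 6 and 14 reads in cKO 1, 2 and 3 and 2 to 10 in the controls. Sox18 had 12, 7 and 2 in the cKO and 0 to 2 in the controls. Cldn5 and Sox18 passed the edgeR threshold with no filter (adjusted p = 0.00456 and 0.0117), in the fit described with the microglial genes.

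Egfl7 and Ramp2 were the exceptions, with reads everywhere. Egfl7, a secreted protein of vessels (chr2:26580014-26593120), had 16, 27 and 4 reads in cKO 1, 2 and 3 and 6, 12 and 15 as the lowest, median and highest of the controls. The genotypes overlapped, with a cKO library at both ends, and the log2 fold change of 0.54 (SE 0.47, edgeR adjusted p = 0.636) was -0.14 without cKO 2. Ramp2, a partner of the calcitonin-like receptor in adrenomedullin signalling (chr11:101246028-101259546), had 36, 29 and 61 reads in the cKO and 9, 20 and 32 in the controls. In CPM it was at 12.0, 11.8 and 25.2 in the cKO and 2.94 to 11.3 in the controls, so the genotypes did not overlap, by a small margin. All 3 cKO lay above every control for 2 of the 33 markers with reads, Ramp2 and C1qc, and for 2.47% of all 26537 genes with reads. The log2 fold change of Ramp2 was 1.06 (SE 0.40, unadjusted p = 0.0161, edgeR adjusted p = 0.176). With a covariate for each library's share of reads that fell outside genes it was 1.44 (adjusted p = 0.0311), and without cKO 3 it was 0.61 (adjusted p = 0.524).

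The sum of the 10 endothelial markers was 29.1 ± 10.2 CPM (SD, n = 3) in the cKO and 13.8 ± 3.32 (SD, n = 7) in the controls. The cKO ran from 18.3 to 38.7 and the controls from 8.50 to 17.3, without overlap. Ramp2 alone carried much of this gap: without it the difference of the means fell from 15.2 to 6.50 CPM, and the sums overlapped, at 6.34, 26.9 and 4.96 in the cKO and 2.84 to 11.5 in the controls. The sum of the 30 further endothelial genes did not follow, at 128 ± 12.1 in the cKO and 135 ± 23.2 in the controls. Most of those reads were from Mfsd2a, Slc2a1 and Abcg2, transporters with reads in every library. Mfsd2a, the lipid transporter of the brain endothelial barrier and the gene with the most of these reads, lay the other way from the marker sum, at 23.7, 30.1 and 34.8 CPM in the cKO and 37.8 to 59.8 in the controls, without overlap. Its log2 fold change was -0.79 (SE 0.23, edgeR adjusted p = 0.0707, DESeq2 adjusted p = 0.0193). Mfsd2a did not track the endothelial markers by library: it had 154 reads in control 1, where Pecam1, Kdr and Cldn5 had 0. Of these 30 genes, 5 passed the filter. By edgeR 0 of the 5 differed (1 at an unadjusted p under 0.05), by DESeq2 1 did (Mfsd2a), and by limma-voom 0 did.

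**Figure D3:**
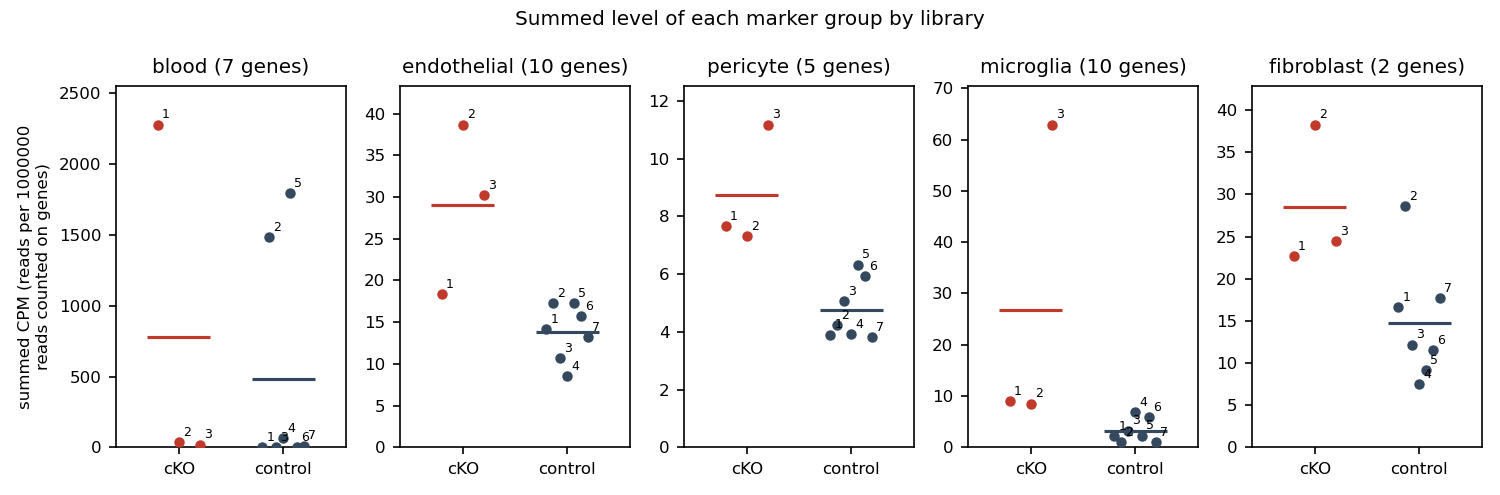
Summed CPM for each of the 5 marker groups, with 1 point per library (replicate number beside it) and a line at the mean of each genotype. The blood sum is high in cKO 1 and controls 2 and 5, and the microglial sum is 62.9 in cKO 3 against at most 9.003 in any other library.

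Pericyte markers had few reads everywhere. Pdgfrb, the receptor that recruits pericytes to vessels, had 7, 4 and 1 reads in cKO 1, 2 and 3 and 0, 7 and 9 as the lowest, median and highest of the controls. Rgs5, a regulator of G protein signalling rich in pericytes, had 2, 3 and 20 reads in the cKO and 0, 3 and 10 in the controls, and cKO 3 held 37.7% of its reads. For both genes the genotypes overlapped. Cspg4 (NG2, also a gene of oligodendrocyte precursors) had 9, 3 and 6 reads in the cKO and 0 to 4 in the controls. Vtn (vitronectin) had 5, 7 and 0 against 0 to 5, and Kcne4, a potassium channel subunit, had 1 read in cKO 2 and 1 in control 1. The 5 genes summed to 8.72 ± 2.13 CPM in the cKO (n = 3) and 4.74 ± 1.04 in the controls (n = 7), 7.32 to 11.2 against 3.82 to 6.33. The ranges did not overlap, on 159 reads in all, but without Rgs5 they did, at 2.90 to 7.00 against 2.08 to 4.60. None of the 5 passed the filter, nor did any of 16 further pericyte and mural genes. Of these, Abcc9, Anpep, Acta2, Tagln and Cnn1 had no read in the column that ignores the strand.

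Microglial and macrophage genes were concentrated in cKO 3. Mrc1, the mannose receptor (CD206) of border macrophages (chr2:14229392-14332057), had 0, 6 and 33 reads in cKO 1, 2 and 3 and 0 in all 7 controls. Csf1r, the receptor on which microglia depend, had 1, 0 and 25 reads in the cKO and 0 in all controls. So 84.6% of the Mrc1 reads and 96.2% of the Csf1r reads were from cKO 3. Against the limit of 3 reads over the pooled controls, Mrc1 was at least 32.3-fold and Csf1r at least 21.5-fold higher in the pooled cKO. Both bounds rest mostly on cKO 3, and that of Csf1r holds only in the column that ignores the strand. Csf1r shares exon sequence with Hmgxb3, and the columns counted by strand gave it 265 reads in place of 26. These were 11, 37 and 37 in cKO 1, 2 and 3 and 13 to 47 in every control. There the genotypes overlapped, so the level of Csf1r is uncertain.

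The 3 genes of complement C1q, secreted by microglia and macrophages, lie side by side on chromosome 4 (C1qb at chr4:136880129-136886187, C1qc at chr4:136889804-136893065 and C1qa at chr4:136895917-136898803). C1qa had 5, 1 and 21 reads in the cKO, 2 reads in control 4 and 0 in the other 6 controls. C1qb had 0, 0 and 14 reads in the cKO, 4 reads in control 3 and 0 in the other controls. C1qc had 6, 5 and 16 reads in the cKO, 2 reads in control 3 and 0 in the other controls. All 3 were highest in cKO 3, and only C1qc was higher in every cKO library than in every control.

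The adaptor genes were more scattered. Tyrobp (DAP12, on chromosome 7) had 10, 2 and 12 reads in the cKO, 12 in control 4 and 0 in the other controls. Fcer1g, the gamma chain of Fc receptors, had 0, 6 and 13 in the cKO and 4 each in controls 5 and 6. Cx3cr1, the fractalkine receptor of microglia, had 13 reads in cKO 3, 3 in control 7 and 0 elsewhere. P2ry12, the purinergic receptor that sets parenchymal microglia apart from border macrophages, had 3 reads in cKO 3, 5 in control 3 and 1 each in controls 4 and 6. Aif1 (IBA1), a calcium-binding protein of microglia, was highest in a control, with 5, 1 and 2 reads in the cKO and 0, 3 and 12 as the lowest, median and highest of the controls.

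The 10 genes summed to 26.8 ± 31.2 CPM in the cKO (n = 3) and 3.23 ± 2.31 in the controls (n = 7). The cKO libraries were at 9.003, 8.55 and 62.9 and the controls at 1.04 to 6.87, so the ranges did not overlap, but the difference of the means fell from 23.6 to 5.55 without cKO 3. Without Mrc1 the ranges overlapped, at 6.10 to 49.2 against 1.04 to 6.87. They also overlapped from the summed strand columns, which raise Csf1r, at 11.4, 22.0 and 63.2 in the cKO against 6.48 to 20.7, with means of 32.2 and 11.6. All 10 genes had reads in cKO 3, 5 and 6 in the other cKO, and 1 to 4 in the controls.

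None of the 10 reached a mean of 10 reads. With no filter on low counts, 961 of 26537 genes (3.62%) differed by the same edgeR test, and 9 of the 33 markers with reads did. These were Mrc1, Csf1r, C1qa, C1qc, Hba-a1, Hbb-bs, Hbb-bt and Alas2, higher in cKO, and Hba-a2, lower. That fit gave each gene the spread of the trend alone (SE 0.17 for Hba-a1, against 1.27 with the filter), and the globin calls were lost when spread was estimated otherwise. With edgeR's older quasi-likelihood method and robust spread, which called 2.8% of all genes, 4 markers differed (Mrc1, Csf1r, C1qa and C1qc), and with DESeq2, which called 1.9% of the same genes, 2 did (C1qa, adjusted p = 0.0368, and C1qc, adjusted p = 0.0186). DESeq2 gave no adjusted p for 11 of the 33, Csf1r among them, and 0.369 for Mrc1. Without cKO 3 none of Mrc1, Csf1r, C1qa and C1qc passed in the unfiltered edgeR fit (adjusted p = 0.0966 to 0.816). The log2 fold changes then went from 4.53 to 3.76 for C1qc, from 4.53 to 2.91 for C1qa, from 6.78 to 4.63 for Mrc1 and from 6.19 to 2.31 for Csf1r. Of the 33 markers, 28 had a positive log2 fold change in that fit, against 50.8% of all genes, and their median was 1.18 against 0.02, the same with Mrc1, Csf1r, Slc4a1 and Flt1 at their lower bounds. With cKO 1, 2 or 3 left out, 23 of 32, 20 of 31 and 25 of 33 were positive. Among the further genes with reads, the unfiltered edgeR fit called 1 of 18 blood, 2 of 24 endothelial, 1 of 11 pericyte and 6 of 22 microglial genes higher. It called 1 of 14 fibroblast genes lower. With the older robust spread 6 microglial, 1 endothelial and 1 fibroblast gene were called, and with DESeq2 1 endothelial gene. The library with the highest marker sum differed by group: cKO 1 for blood, cKO 2 for endothelial and fibroblast, and cKO 3 for pericyte and microglial genes.

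**Figure D4:**
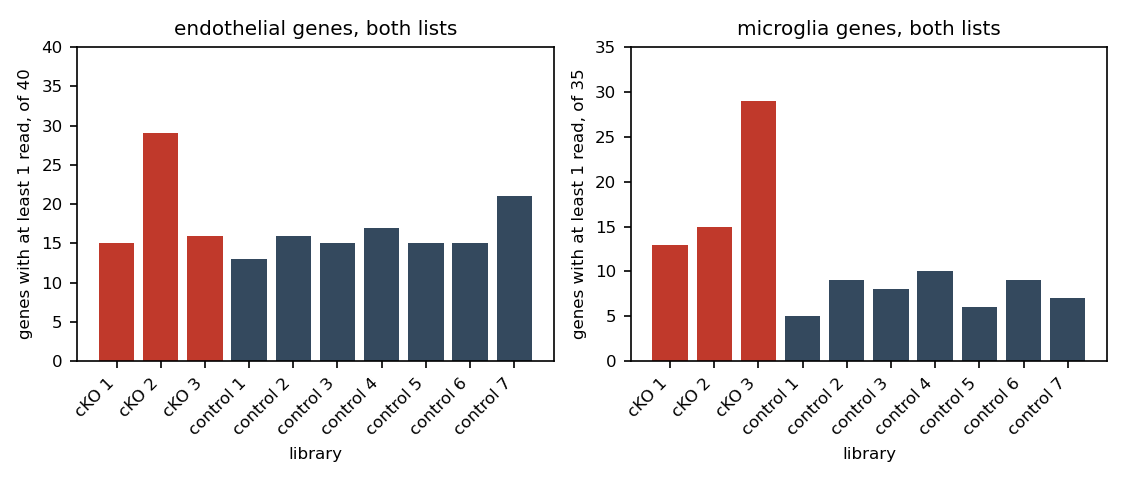
Number of genes with at least 1 read in each library (cKO red, control dark blue), of 40 endothelial genes (left) and 35 microglial and macrophage genes (right), markers and further genes together. The bar of cKO 2 stands at 29 on the left and that of cKO 3 at 29 on the right, against 5 to 15 in the other libraries on the right.

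Further macrophage genes were also read most widely in cKO 3. Of 25, 19 had reads there, 8 and 9 in the other cKO and 4 to 8 in the controls. Of the 25, 22 had reads in some library, so a few were read only outside cKO 3. The genes named next were picked for their reads in cKO 3. Fcrls had 40 reads in cKO 3 and 1 elsewhere, in control 6. Fcgr3 (an Fc receptor) had 23 and Ms4a7, a gene of border macrophages, had 17, all in cKO 3. F13a1 had 23 in cKO 3 and at most 6 elsewhere. Of the 25, 3 passed the filter, and Pf4 was the only one of these to differ. Sall1 had reads in every library and is also expressed in cortical progenitors. The 25 genes summed to 36.0, 129 and 139 CPM in cKO 1, 2 and 3 and 25.9 to 42.0 in the controls, so the genotypes overlapped through cKO 1. This sum includes Sall1 and Pf4, which other cells also make, so it does not measure macrophage reads alone. The 10 markers summed to 8.55 CPM in cKO 2 and 62.9 in cKO 3.

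Pf4 encodes the chemokine platelet factor 4, made by platelets and also by border macrophages (chr5:90772435-90773383). It had 0, 133 and 77 reads in cKO 1, 2 and 3, and among the controls 13 in control 5, 3 in control 3 and 0 in the other 5. The genotypes overlapped through cKO 1, which had none. The log2 fold change was 4.96 (SE 0.94, edgeR adjusted p = 0.00215), while DESeq2 gave an adjusted p of 0.519 and limma-voom 0.395. The genes beside Pf4 differed between the 2 libraries that held it. In cKO 3 it went with Mrc1 (33 reads), Fcrls (40) and C1qa (21). In cKO 2, where those genes had 6, 0 and 1 reads, the platelet genes Ppbp, Clec1b and Gp9 had 20, 17 and 22 reads, against 1, 0 and 0 in cKO 3 and at most 5 in any control. These 3 platelet genes were looked up after their values had been seen. Of 16 platelet genes written down then, 14 had reads in cKO 2 and 4 to 11 in the other libraries, so part of that list is read in libraries without Pf4. The 16 had 142 reads in cKO 2, 104 in control 3 and 91 in cKO 1. Some went another way from the 3 named: Itga2b had 32 reads in cKO 1 and 11 in cKO 2, and Thbs1 had 28 in control 3 and 8 in cKO 2.

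The fibroblast markers split. Dcn (decorin, a small proteoglycan of connective tissue, chr10:97479609-97518143) had 68, 92 and 59 reads in cKO 1, 2 and 3 and 16, 40 and 75 as the lowest, median and highest of the controls. In CPM the cKO were at 22.7, 37.4 and 24.4 and the controls at 7.52 to 26.5, with control 2 inside the cKO range. The log2 fold change was 0.94 (SE 0.32, unadjusted p = 0.00952, edgeR adjusted p = 0.137). Lum (lumican, a proteoglycan found with decorin in fibroblasts) had 0, 2 and 0 reads in the cKO and 0, 1 and 6 in the controls.

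With the filter, other fibroblast genes were low or were not called. Lum was at 0 in 5 of 10 libraries, each of which had at least 16 Dcn reads. The fibrillar collagens Col1a1, Col1a2 and Col3a1 had at most 8 reads in any library, and Foxc2 and Mgp had none. The 16 further fibroblast genes summed to 86.8 ± 20.7 CPM in the cKO and 94.4 ± 19.0 in the controls, mostly from Fbln1 and Fn1, and 0 of the 2 that passed the filter differed by edgeR, DESeq2 or limma-voom (1 at an unadjusted p under 0.05 by edgeR).

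**Figure D5:**
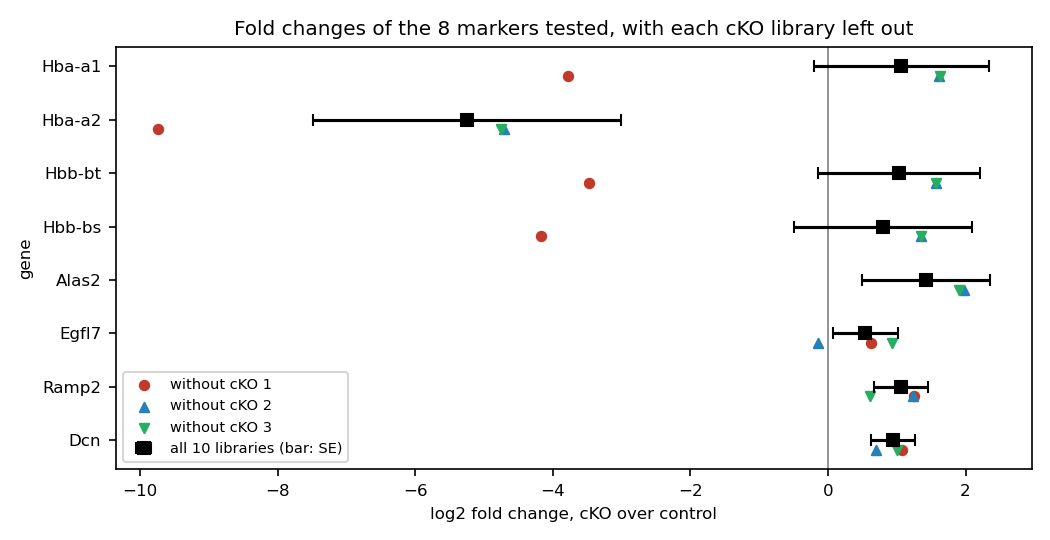
Log2 fold change, cKO over control, of the 8 markers that averaged 10 reads or more (edgeR), with all 10 libraries (black squares, bars are SE) and with each cKO library left out (coloured points). Without cKO 1 the Hba-a1, Hbb-bs and Hbb-bt values turn from about 1 to below -3, whereas Ramp2 and Dcn stay positive in each case, and Alas2 has no value without cKO 1 because its mean then falls below 10 reads.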

How the data were processed

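Libraries were made by Smart-Seq2 from polyadenylated RNA of sorted cells, and technical replicates were merged by the authors. Per the submitters' processing notes and the methods, the authors aligned reads to GRCm38 with STAR 2.5.0c, removed reads with more than one alignment and counted the rest on GENCODE M16 genes. The counts were deposited raw, in 3 columns (strand ignored, sense, antisense). Sense reads made up 50.3% to 50.5%, so the column that ignores the strand was used. It leaves out reads that overlap several genes (4.45% to 5.40% of unique reads), which lowers overlapping genes such as Csf1r. Reads outside genes, 5.47% to 16.7%, stayed out of library sizes.

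Symbols and positions came from GENCODE M21 (GRCm38), with 50604 genes matched by identifier and version, 2670 by identifier and 105 not matched. Genes that averaged 10 reads or more over the 10 libraries were tested with edgeR 4.0.16 (TMM, glmQLFit with legacy = FALSE and robust = FALSE, genotype alone) in R 4.3.3, with Benjamini-Hochberg adjustment over all genes and a threshold of 0.05. The procedure was tested on simulated data. No 2 libraries of a genotype were alike within counting error (chi-square per degree of freedom 4.69 to 20.9 over 24 pairs). Alternatives were DESeq2 1.42.0, limma-voom (limma 3.58.1), another normalization, no filter, the summed strand columns, a covariate, the replicate block and each library left out. The unfiltered fits with DESeq2, with edgeR's older robust spread, with the block and without each library, and the fit with the markers' reads taken out, were added after seeing the data. Summed levels got no test.

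The 34 markers and the further lists were chosen with earlier results of these data known. Values per library were given for markers that averaged 10 reads or more, for the 2 with the most reads in each group and for those past the threshold with or without the filter. Of the further lists, genes past the threshold and the 2 with the most reads were to be named. Values are given only for those that bear on a marker, and the other genes named were chosen after their values were seen. Ahsp was not matched. Some genes of the further lists are not reported here. Coding sequences came from GENCODE M21 transcripts and promoters from RefSeq (GRCm38.p6). Figures were drawn with matplotlib 3.10.9.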

Additional observations from a re-analysis of the deposited data

Results flagged for a closer look

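In each of the 33 markers with reads and the 5 summed groups, the highest and the lowest of the 7 controls were compared with the other 6. In 9 markers 1 control lay far above the rest. Tyrobp was at 3.92 CPM in control 4 (12 reads), C1qb at 1.19 in control 3 (4 reads) and Cx3cr1 at 1.04 in control 7 (3 reads), each with the other 6 at 0. The same held for C1qa at 0.654 in control 4 (2 reads), C1qc at 0.595 in control 3 (2 reads), Kcne4 at 0.355 in control 1 (1 read) and Tie1 at 0.347 in control 7 (1 read), all below the 3 reads taken as the limit of a library. Eng was at 1.74 CPM in control 6 (5 reads) and next at 0.327, and P2ry12 was at 1.49 in control 3 (5 reads) and next at 0.349. Chance flags about 1 in 20 such groups, and a gene read in a single control is always picked out in this way. The cKO, with 3 libraries, were not looked at.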

How the results depend on the processing

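With the filter, no marker was called by DESeq2 or limma-voom, with DESeq2 size factors or from the summed strand columns. Over all genes, 364 calls became 961 with no filter, 742 with edgeR's older robust spread on the same genes, 213 (1.84%) with the replicate block and 180 (0.678%) with the block and no filter. Markers called were 9 with no filter, 4 with the older robust spread, 2 with DESeq2 and no filter, 2 with the block and no filter (Hba-a2 and Mrc1), 1 with the replicate block (Hba-a2, adjusted p = 0.000125) and 1 with the covariate (Ramp2, whose log2 fold change was 0.78, adjusted p = 0.708, with the block). The correlation of deviations between same-numbered samples was 0.0407, -0.103 and -0.211 for numbers 1, 2 and 3. These values show no pairing, but so few cannot settle whether same-numbered samples shared a litter, a sort or a run. With each library left out in turn, 0 markers were called with the filter. With no filter, 5 were called without cKO 3, beside 3.52% of all genes, and 13 without cKO 1, beside 3.17%. Leaving out 1 library moved the log2 fold change of Hba-a1 between -3.78 and 1.88, of Hbb-bt between -3.48 and 1.92, of Hbb-bs between -4.17 and 1.61, of Hba-a2 between -9.74 and -4.42 and of Egfl7 between -0.14 and 0.93. In the unfiltered fit it moved Pdgfrb (-0.19) between -0.73 and 0.19 and Rgs5 between -0.67 and 1.66, and the block gave Pdgfrb 0.41. With the covariate Hba-a1 was at -0.17 and Hbb-bs at -0.41. The cause of these shifts was not tested. Without the gene with the most reads, the difference of summed levels fell to 6.50 CPM for endothelial (Ramp2), to 2.01 for pericyte (Rgs5) and to -0.27 for fibroblast genes (Dcn), and the microglial difference ran from 5.55 (without cKO 3) to 32.7 (without cKO 2). The other 66 summed differences moved by less than 1 SD, but that SD is 948 CPM for blood genes, whose difference of 297 turned to -453 without cKO 1, and the strand columns raised the microglial means to 32.2 and 11.6. Depth limits the 26 markers below the filter, at 0 to 53 reads over 10 libraries.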

Other observations

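Chemokine genes were read with the macrophage genes of cKO 3. Ccl7 had 88 reads in cKO 3 and 2 in cKO 2, Ccl2 had 64 and Cxcl1 38 reads in cKO 3, with 0 Ccl2 reads elsewhere and 7 Cxcl1 reads over controls 5 and 7. Both Ccl2 and Ccl7 attract monocytes. Of the 15250 genes with at least 20 reads in all, 10 had 80% or more of them in cKO 3. Among them were the markers Mrc1 and Csf1r and the further macrophage genes Fcrls and Fcgr3. For Csf1r this did not hold in the columns counted by strand. In cKO 2 there were 2 such genes, Ppbp and Clec1b, both of platelets. In cKO 1 there were 10, led by Trib3 (65 of 78 reads), and no blood gene was among them. No control library had such a gene. These genes were chosen after their values were seen.

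Markers of other tissue at the edge of the cortex also differed by library. Ttr, the transport protein that leads the choroid plexus, carried most of the 7 choroid plexus genes' sum, which was 36.3, 8.14 and 58.3 CPM in cKO 1, 2 and 3 and 0 to 23.0 in the controls.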
